A study of Mus musculus with 24 samples.

Results

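Orm1, Orm2, Saa1, Saa2 and Saa3 encode acute phase proteins of the orosomucoid and serum amyloid A families, and their transcripts were followed in the lungs of mice given diesel exhaust particles, the egg white protein ovalbumin (OVA), both, or saline. A probe set, the group of short oligonucleotides that reports 1 transcript on the array, was taken as a member when its annotation gave exactly 1 of these 5 symbols. Where a gene had several, the one with the highest mean log2 intensity over the 24 arrays stood for it. This gave 5 of 12393 measured genes. Counting every probe set, 6 of the 20380 with 1 gene symbol belonged to them, because Saa1 had a second one.

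Each array held the lung RNA of 1 female BALB/C mouse, an inbred laboratory strain, aged 8 to 10 weeks, and 3 separate mice formed each of 8 groups. The groups were C-DEP with OVA, A-DEP with OVA, N-DEP with OVA, OVA with saline, C-DEP, A-DEP, N-DEP and saline, written here as CDEP+OVA, ADEP+OVA, NDEP+OVA, OVA, CDEP, ADEP, NDEP and saline. The 3 particle samples, which the series title calls chemically distinct, were given at 150 ug and OVA at 20 ug, into the nose on days 0 and 13, and lungs were frozen for RNA 18 hours after the later dose. The labels mark the 4 groups that received OVA as sensitized and the other 4 as not sensitized, and no group carries an altered gene.

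Acute phase proteins are plasma proteins whose synthesis climbs steeply during inflammation or infection, chiefly in liver cells that receive interleukin 6, interleukin 1 and tumour necrosis factor, and in many cases glucocorticoid. STAT3 and the C/EBP factors carry much of the interleukin 6 signal, and NF-kB carries that of interleukin 1. Orosomucoid, also named alpha-1-acid glycoprotein, is a heavily glycosylated lipocalin that binds lipids and basic drugs and dampens several immune cell functions. Serum amyloid A proteins are small apolipoproteins that ride on high density lipoprotein. In the mouse Saa1 and Saa2 are the main forms released by the liver, while Saa3 is made largely outside it, among others by macrophages, fat cells and airway epithelium.

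Levels are RMA intensities on a log2 scale, and 1 unit is a doubling. The deposited arrays had medians of 72.2 to 75.5 intensity units. A probe set below the 25th percentile of its array (4.45 to 4.64 log2 over the 24 arrays) is called dim here, because it is not shown to lie above background and the size of its changes is uncertain. The lung epithelium list, surfactant and club cell genes, summed to 37261 to 49881 intensity units per array, which fits the labelled tissue. The hepatocyte list summed to 271 to 502 over 10 genes, none of which changed in any of the particle comparisons, and its member Cps1 was dim on all 24 arrays. RMA gives every probe set a value above 0, so no marker is at 0. In whole lung, more cells of a type and more RNA per cell cannot be told apart.

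The members differed widely in level within their own scales. Saa3 lay at the 98.9th percentile of all named probe sets by its mean and was dim on 0 arrays. Orm1 lay at the 55.5th percentile and was dim only on the 3 OVA arrays. Orm2 (22.6th percentile) was dim on 11 arrays, which included all saline, all OVA and all ADEP+OVA arrays. Saa1 (29.9th percentile) was dim on 6 arrays, those of saline and OVA. Saa2 (4.89th percentile) was dim on all 24 arrays. Probe sets bind with unequal strength, so these positions do not rank the transcripts by abundance. The copies of Orm genes, and of Saa1 and Saa2, are nearly identical, so signal at one probe set may come in part from its relatives.

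**Figure D1:**
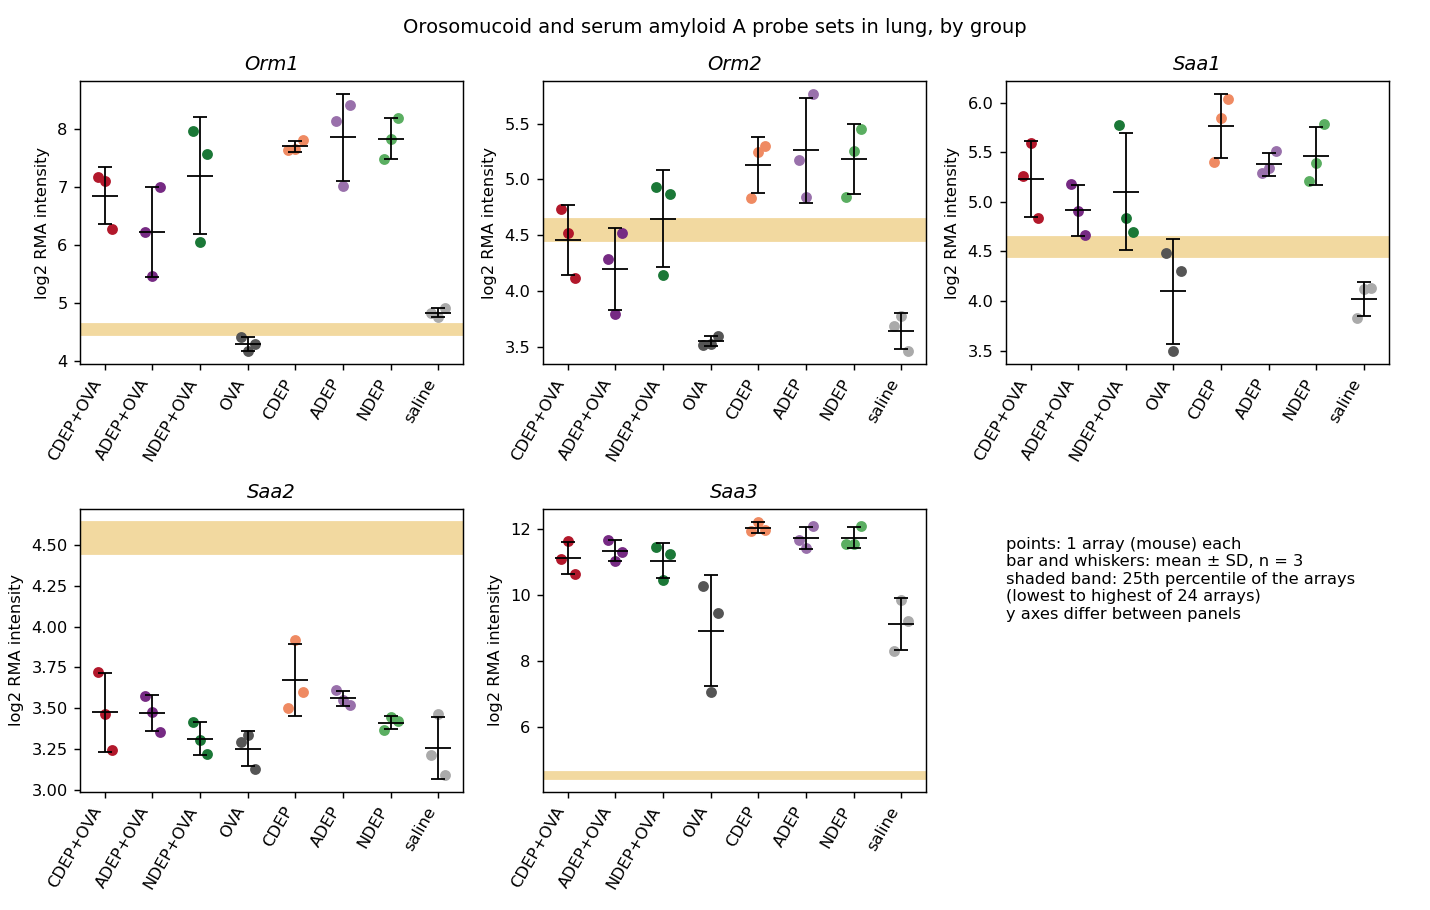
Log2 RMA intensity of the chosen probe set of each member on every array (points) with group mean ± SD (bar and whiskers), 3 mice per group, groups along the horizontal axis. The shaded band spans the 25th percentiles of the 24 arrays, and vertical axes differ between genes. Orm1, Orm2, Saa1 and Saa3 stand higher in all 6 particle groups than in OVA and saline, and the OVA array with Saa3 at 7.06 lies far below the other two of its group.

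The orosomucoid genes lie side by side on mouse chromosome 4 (GRCm38.p6, RefSeq), with Orm1 at chr4:63344556-63348163 and Orm2 at chr4:63362449-63365877, and Orm3 between them. The 250 bases before the start of Orm2 and of its relative Orm3 are shown because both hold the same pair of short motifs. They are read 5′ to 3′ on the plus strand, at chr4:63362199-63362448 for Orm2 and chr4:63355908-63356157 for Orm3, with matches to the C/EBP motif TTGCNCAA and to the TATA motif TATAAA in capitals.
Orm2: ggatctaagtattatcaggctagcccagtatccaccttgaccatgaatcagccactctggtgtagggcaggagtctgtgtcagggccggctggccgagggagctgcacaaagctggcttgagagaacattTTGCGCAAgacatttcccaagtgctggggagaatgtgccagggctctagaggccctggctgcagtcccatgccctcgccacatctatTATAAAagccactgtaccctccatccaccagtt
Orm3: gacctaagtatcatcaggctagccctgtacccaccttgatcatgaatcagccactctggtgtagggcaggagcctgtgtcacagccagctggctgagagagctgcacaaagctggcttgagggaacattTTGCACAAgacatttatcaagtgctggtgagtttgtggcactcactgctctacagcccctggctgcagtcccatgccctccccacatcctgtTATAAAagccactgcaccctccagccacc
The C/EBP match began 120 bases before the start in Orm2 and 121 bases before it in Orm3, and the TATA match 33 and 29 bases before it. Over windows of 300 bases, 250 before and 50 after the start, searched on both strands, 2.94% of 32851 RefSeq promoters held the C/EBP motif and 13.6% the TATA motif. The Orm2 and Orm3 windows were 86.2% identical. A match is a description of letters and shows no binding.

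Orm1 (Entrez gene 18405) was raised in every particle group. Without OVA it read 7.65, 7.66 and 7.81 log2 in CDEP lungs, 8.15, 7.02 and 8.43 in ADEP lungs and 7.48, 7.84 and 8.19 in NDEP lungs, against 4.83, 4.76 and 4.92 in saline lungs. All 9 particle lungs lay above all saline lungs. The CDEP mice were close to each other (7.71 ± 0.090, SD, n = 3), and ADEP varied most of the 3 (7.86 ± 0.75, SD, n = 3) because 1 mouse was lower. With OVA, Orm1 read 7.18, 7.11 and 6.29 in CDEP+OVA lungs, 6.22, 5.46 and 7.0 in ADEP+OVA lungs and 7.97, 6.06 and 7.58 in NDEP+OVA lungs, against 4.43, 4.18 and 4.30 in OVA lungs. These 9 lungs also lay above all OVA lungs, with more spread between mice than without OVA in CDEP and NDEP (SD 0.49, 0.77 and 1.01 for CDEP+OVA, ADEP+OVA and NDEP+OVA).

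Orm2 (Entrez gene 18406) followed Orm1 at a lower reading. It was at 4.84, 5.25 and 5.29 log2 in CDEP lungs, 5.17, 4.84 and 5.77 in ADEP lungs and 4.84, 5.25 and 5.45 in NDEP lungs, against 3.69, 3.78 and 3.46 in saline lungs. With OVA it was at 4.74, 4.52 and 4.12 in CDEP+OVA lungs, 4.28, 3.79 and 4.52 in ADEP+OVA lungs and 4.93, 4.15 and 4.87 in NDEP+OVA lungs, against 3.52, 3.53 and 3.60 in OVA lungs. Every particle lung was above every saline and OVA lung, although the saline, OVA and ADEP+OVA readings were dim. Mice that were high for Orm1 within their group were generally high for Orm2, with a correlation of 0.874 over the 24 arrays after group means were removed (0.965 before). Orm3 (Entrez gene 18407), the third copy, was dim on all 24 arrays and changed in none of the particle comparisons.

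The serum amyloid A genes lie on mouse chromosome 7, with Saa3 at chr7:46711998-46719615, Saa4 at chr7:46727992-46732603, Saa1 at chr7:46740497-46743181 and Saa2 at chr7:46751833-46754313. The 250 bases before the start are shown for Saa1 and Saa2, whose windows were 95.3% identical, and for Saa3, whose window was 50.9% identical to that of Saa1. They are read 5′ to 3′ along the gene, at chr7:46742981-46743230 (minus strand) for Saa1, chr7:46751583-46751832 (plus strand) for Saa2 and chr7:46715677-46715926 (minus strand) for Saa3. The starts used for Saa1, Saa3 and Orm3 lie inside the annotated gene spans. Capitals mark matches to the C/EBP motif and, in Saa1 alone, to the NF-kB motif.
Saa1: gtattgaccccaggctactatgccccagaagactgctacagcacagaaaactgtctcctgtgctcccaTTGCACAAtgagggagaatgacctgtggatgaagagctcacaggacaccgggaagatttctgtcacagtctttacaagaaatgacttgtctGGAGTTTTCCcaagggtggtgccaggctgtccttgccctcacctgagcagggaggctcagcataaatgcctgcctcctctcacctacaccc
Saa2: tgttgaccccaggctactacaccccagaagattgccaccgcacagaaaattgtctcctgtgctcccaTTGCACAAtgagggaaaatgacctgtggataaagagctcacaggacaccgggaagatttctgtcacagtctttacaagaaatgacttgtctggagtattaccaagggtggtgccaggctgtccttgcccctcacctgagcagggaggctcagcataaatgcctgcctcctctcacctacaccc
Saa3: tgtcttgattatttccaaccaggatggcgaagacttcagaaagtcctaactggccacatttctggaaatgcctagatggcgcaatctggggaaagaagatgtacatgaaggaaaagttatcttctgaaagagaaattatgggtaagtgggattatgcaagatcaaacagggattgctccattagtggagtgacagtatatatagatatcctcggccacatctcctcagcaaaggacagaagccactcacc
The C/EBP match began 182 bases before the start in Saa1 and 183 bases before it in Saa2, so 3 of the 4 member promoters in the table held it, Saa3 being the one without. The NF-kB match GGAGTTTTCC in Saa1 ran from 91 to 82 bases before the start, and 11.2% of all promoter windows held an NF-kB match. No member window held the STAT motif TTCNNNGAA, which 8.30% of all windows held. The absence of a match says only that these letters are not in this window.

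Saa3 (Entrez gene 20210) was among the brightest probe sets in particle lungs. It read 11.94, 12.23 and 11.98 log2 in CDEP lungs, 11.67, 11.42 and 12.09 in ADEP lungs and 11.56, 11.56 and 12.11 in NDEP lungs, against 8.31, 9.86 and 9.21 in saline lungs. On the linear scale that is 3937 to 4802 intensity units in CDEP lungs, against 318 to 932 in saline lungs. Saa3 varied among unexposed mice more than any other member, with an SD of 0.78 in saline. With OVA it read 11.11, 11.63 and 10.64 in CDEP+OVA lungs, 11.67, 11.03 and 11.32 in ADEP+OVA lungs and 11.45, 10.46 and 11.25 in NDEP+OVA lungs, against 10.28, 7.06 and 9.45 in OVA lungs. OVA replicate 2, at 133 intensity units beside 1241 and 700 in the other two, widened that group (SD 1.67), yet all 9 particle lungs with OVA lay above all OVA lungs.

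Saa1 (Entrez gene 20208) showed the same split between lungs with and without particle at a much lower reading. It was at 5.40, 5.85 and 6.04 log2 in CDEP lungs, 5.29, 5.34 and 5.51 in ADEP lungs and 5.21, 5.39 and 5.79 in NDEP lungs, against 3.83, 4.12 and 4.13 in saline lungs. With OVA it was at 5.26, 5.59 and 4.83 in CDEP+OVA lungs, 5.18, 4.90 and 4.66 in ADEP+OVA lungs and 5.77, 4.84 and 4.70 in NDEP+OVA lungs, against 4.49, 3.50 and 4.31 in OVA lungs. Particle lungs again lay above all lungs without particle, and OVA replicate 2 was again the lowest of its group. Saa2 (Entrez gene 20209) was at 3.50 to 3.92 in CDEP lungs, 3.52 to 3.61 in ADEP lungs and 3.37 to 3.45 in NDEP lungs, against 3.09 to 3.46 in saline lungs, all dim. With OVA Saa2 was at 3.24 to 3.72 in CDEP+OVA lungs, 3.36 to 3.58 in ADEP+OVA lungs and 3.22 to 3.42 in NDEP+OVA lungs, against 3.13 to 3.34 in OVA lungs. Saa4 is a relative that is made constitutively. Its chosen probe set was not dim on any array and changed in none of the particle comparisons. The other Saa4 probe set was dim on 14 arrays. It read 4.09 to 4.21 in OVA lungs, below all lungs with particle and OVA. Those read 4.36 to 4.47 in CDEP+OVA, 4.23 to 4.58 in ADEP+OVA and 4.32 to 4.64 in NDEP+OVA. Without OVA, each particle group overlapped saline at this probe set.

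Ordered by mean, the 8 groups fell into the same 2 blocks for Orm1, Orm2, Saa1 and Saa3. The 6 particle groups stood above OVA and saline, and the arrays of the lowest particle group did not overlap those of the next group. Inside the upper block every pair of neighbours overlapped for these genes. At the bottom, OVA and saline overlapped for Orm2, Saa1 and Saa3, and for Orm1 the 3 OVA lungs (4.30 ± 0.12, SD, n = 3) lay just under the 3 saline lungs (4.84 ± 0.081, SD, n = 3), as 6.61% of all genes did. For Saa2 neighbouring groups overlapped throughout.

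Each particle was first set against saline, which asks how lungs given particle alone differ from unexposed lungs. A gene is called changed at an adjusted p of 0.05 in limma's moderated test, adjusted by Benjamini-Hochberg over all 12393 genes. CDEP raised 5 of the 5 members, while 2.28% of all genes were called higher in that comparison. ADEP raised 4 members (1.16% of all genes) and NDEP 4 (2.25%), in each case all but Saa2. The median log2 fold change of the members was 1.74 in CDEP, 1.62 in ADEP and 1.54 in NDEP, beside medians of -0.016, -0.012 and 0.0042 over all genes. Member arrays did not overlap saline for 5 genes in CDEP and ADEP and 4 in NDEP, where 10.9%, 10.7% and 10.8% of all genes stood wholly higher.

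Orm1 and Saa3 had the 2 highest log2 fold changes of all measured genes in each of the 3 comparisons with saline. Orm1 was higher by 2.87 ± 0.38 log2 units (SE) in CDEP, or 7.30-fold, with a limma adjusted p of 0.000323. It was higher by 3.03 ± 0.38 in ADEP (8.14-fold, limma adjusted p 0.000435) and by 3.00 ± 0.38 in NDEP (7.99-fold, limma adjusted p 6.41e-05). Saa3 was higher by 2.92 ± 0.49 in CDEP (7.56-fold, limma adjusted p 0.00151), 2.60 ± 0.49 in ADEP (6.04-fold, 0.00870) and 2.61 ± 0.49 in NDEP (6.12-fold, 0.00326). Orm2, with a dim saline group, rose by 1.48, 1.62 and 1.54 (SE 0.22) in CDEP, ADEP and NDEP, and Saa1, likewise dim in saline, by 1.74, 1.35 and 1.44 (SE 0.25). With the saline arrays at their 25th percentiles, the Orm2 mean was 1.45-fold, 1.59-fold and 1.51-fold higher. The Saa1 mean was 2.25-fold, 1.73-fold and 1.83-fold higher. These values carry no sampling error, so they do not bound the true differences. Saa2 rose by 0.42 ± 0.12 in CDEP with a limma adjusted p of 0.0495, just inside the threshold, while its differences were 0.31 ± 0.12 in ADEP and 0.15 ± 0.12 in NDEP.

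**Figure D2:**
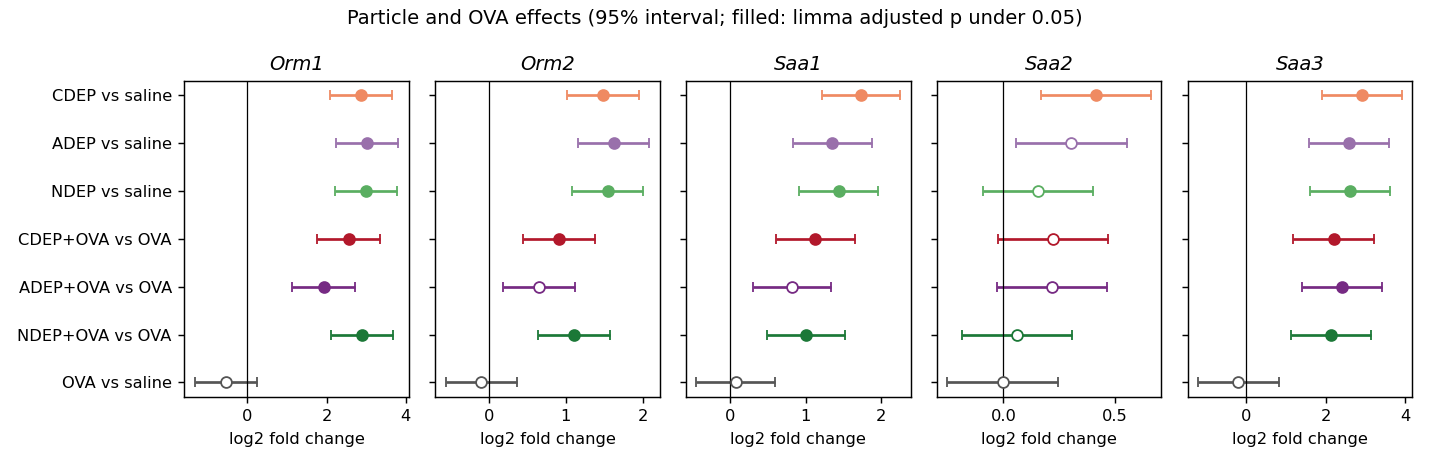
Log2 fold change with its 95% interval for each member in each particle group against saline or, with OVA, against OVA, and for OVA against saline, filled where limma's adjusted p was under 0.05. In the 6 particle comparisons Orm1 and Saa3 lie between 1.93 and 3.03, Orm2 and Saa1 between 0.65 and 1.74, and Saa2 at or below 0.42, while OVA against saline runs from -0.54 for Orm1 to 0.073 for Saa1.

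The Orm1 and Orm2 calls in the comparisons of ADEP and NDEP with saline held whichever array was left out. Without saline replicate 1 or without ADEP replicate 3, ADEP lost Saa1 (1.26 and 1.29) and Saa3 (2.19 and 2.41), leaving 2 members called, where 0.0888% and 0.0646% of all genes were then called higher. The Saa2 call in CDEP was lost without any 1 of the 3 CDEP arrays and without saline replicate 1 or 3, with all probe sets in the fit (limma adjusted p 0.0515) and with only the groups compared (0.133). Control probe sets that gauge RNA quality moved with the CDEP comparison: the 3′ minus 5′ difference of Actb was 0.636 to 0.688 log2 units in CDEP, against 0.808 to 1.20 in saline, and that of Gapdh was 0.000 to 0.123 in CDEP, against 0.125 to 0.679 in saline. With both differences as covariates, 1 of the 5 CDEP calls was left, Orm1 at 3.14. The other log2 fold changes were 1.44 for Orm2, 1.50 for Saa1, 0.21 for Saa2 and 2.58 for Saa3. The share of all genes called higher with these covariates is not given here, so this count lacks that reference.

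The particles with OVA were set against OVA, which asks the same of lungs that received the allergen. CDEP+OVA raised 4 members (3.62% of all genes), NDEP+OVA 4 (1.74%) and ADEP+OVA 2 (0.629%). The median log2 fold change of the members was 1.13, 0.82 and 1.10 in CDEP+OVA, ADEP+OVA and NDEP+OVA, beside -0.014, 0.027 and 0.016 over all genes. Orm1 rose by 2.56 ± 0.38 in CDEP+OVA (limma adjusted p 0.000161), 1.93 ± 0.38 in ADEP+OVA (0.0113) and 2.90 ± 0.38 in NDEP+OVA (8.28e-05). Orm1 was dim on all OVA arrays. With each of these set at its own 25th percentile, the Orm1 mean was 4.92-fold, 3.18-fold and 6.24-fold higher, values without sampling error. Saa3 rose by 2.20 ± 0.49, 2.41 ± 0.49 and 2.12 ± 0.49 in the same order (4.58-, 5.33- and 4.35-fold). Orm2 and Saa1 rose in CDEP+OVA by 0.91 ± 0.22 and 1.13 ± 0.25 and in NDEP+OVA by 1.10 ± 0.22 and 1.01 ± 0.25. In ADEP+OVA they stood at 0.65 ± 0.22 (limma adjusted p 0.217) and 0.82 ± 0.25 (0.166), although neither overlapped the OVA arrays. Both genes were dim on all OVA arrays. With these arrays at their 25th percentiles, the Saa1 mean was 1.59-fold, 1.28-fold and 1.46-fold higher in CDEP+OVA, ADEP+OVA and NDEP+OVA. The Orm2 mean was 1.06-fold higher in NDEP+OVA, where 1 array was itself dim. These values carry no sampling error, so they do not bound the true differences. In CDEP+OVA and ADEP+OVA the Orm2 mean lay below the mean of those percentiles, so no such value is given. Saa2 was at 0.22, 0.22 and 0.061 (SE 0.12) and was not called. Member arrays did not overlap OVA for 4 genes in CDEP+OVA, 5 in ADEP+OVA and 4 in NDEP+OVA, where 12.8%, 11.1% and 9.21% of all genes stood wholly higher.

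These comparisons leaned on OVA replicate 2, the array with the lowest Saa1 and Saa3. Without it Saa3 was higher by 1.26 in CDEP+OVA, 1.48 in ADEP+OVA and 1.19 in NDEP+OVA, none of them called, and the members called were 1, 0 and 2, where 1.37%, 0.129% and 0.565% of all genes were then called higher. Orm1 kept its call without that array in CDEP+OVA and NDEP+OVA, and lost it in ADEP+OVA (1.87). Single particle arrays mattered as well. The count fell to 1 without CDEP+OVA replicate 2, where 1.34% of all genes were then called higher. It fell to 1 without ADEP+OVA replicate 1 or 3 (0.412% and 0.347% of all genes). It fell to 2 without NDEP+OVA replicate 1 or 3 (1.48% and 0.549%). By gene, Orm2 lost its call without CDEP+OVA replicate 1 (0.77) or 2 (0.88), OVA replicate 2 (0.90 in CDEP+OVA) or NDEP+OVA replicate 3 (0.99). Saa1 lost it without CDEP+OVA replicate 2 (0.95), NDEP+OVA replicate 1 (0.67), OVA replicate 2 (0.83 in CDEP+OVA and 0.71 in NDEP+OVA) or, in NDEP+OVA, OVA replicate 3 (1.11). Orm1 in ADEP+OVA lost it without ADEP+OVA replicate 3 (1.54), and Saa3 without CDEP+OVA replicate 2 (1.94), ADEP+OVA replicate 1 (2.25) or NDEP+OVA replicate 1 (1.92) or 3 (2.02).

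OVA without particle gave no called difference from saline in any member. The log2 differences of OVA from saline were -0.54 ± 0.38 for Orm1, -0.095 ± 0.22 for Orm2, 0.073 ± 0.25 for Saa1, -0.0034 ± 0.12 for Saa2 and -0.20 ± 0.49 for Saa3, and none was called (0% of all genes by limma, with the 95% interval of Orm1 from -1.32 to 0.25). None of the 5 had an unadjusted p under 0.05 either. The Saa3 difference was 0.73 without OVA replicate 2, the other side of 0, and its 95% interval over all arrays ran from -1.21 to 0.81.

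Each particle with OVA was set against the same particle alone. The differences were below 0 for every member in each of the 3 pairs, though with the RNA quality covariates Saa2 was just above 0 in CDEP and NDEP, and none passed the test in a single pair. At an unadjusted p under 0.05 there were 3 members in CDEP+OVA against CDEP, 2 in ADEP+OVA against ADEP and 1 in NDEP+OVA against NDEP. The shares of all genes at that unadjusted threshold are not given here, so these 3 counts lack that reference. Orm1 differed by -0.85 ± 0.38 in CDEP+OVA against CDEP, by -1.63 ± 0.38 in ADEP+OVA against ADEP (limma adjusted p 0.121) and by -0.63 ± 0.38 in NDEP+OVA against NDEP. Orm2 differed by -0.67, -1.06 and -0.53 (SE 0.22), with a limma adjusted p of 0.0648 in ADEP+OVA against ADEP. Saa1 differed by -0.53, -0.46 and -0.36 (SE 0.25), Saa3 by -0.93, -0.38 and -0.69 (SE 0.49) and Saa2 by -0.20, -0.091 and -0.097 (SE 0.12). The shares of all genes called lower were 1.66%, 0.0161% and 0.161% in the 3 pairs. Without ADEP replicate 2 or without ADEP+OVA replicate 3, Orm1 (-2.06 and -2.02) and Orm2 (-1.27 and -1.22) were called in ADEP+OVA against ADEP.

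The mean of the 3 pairs, a comparison added after the values were seen, called 2 of the 5 members lower, both orosomucoids, where 2.25% of all genes were called lower. Orm1 was lower with OVA by a mean log2 difference of -1.04 ± 0.22 (limma adjusted p 0.00636) and Orm2 by -0.75 ± 0.13 (0.00106). Saa1 stood at -0.45 ± 0.15 (0.0871), Saa3 at -0.67 ± 0.28 (0.224) and Saa2 at -0.13 ± 0.069 (0.369). Saa1 was also called without NDEP+OVA replicate 1 (-0.56) and with array weights (limma adjusted p 0.0360), and Saa3 with only the groups compared (0.00928). Whether OVA acted differently with particle than without it is a separate test, and there no member was called: the mean interaction was -0.50 ± 0.44 for Orm1 and -0.66 ± 0.26 for Orm2 (unadjusted p 0.0179, limma adjusted p 0.409, with 0.113% of all genes called in either direction). Of the 3 single interactions none called a member either, ADEP by OVA being at -1.10 for Orm1 (limma adjusted p 0.489) and -0.97 for Orm2 (0.314). The shares of all genes called were 0.371%, 0.0242% and 0.0242% for CDEP, ADEP and NDEP by OVA.

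**Figure D3:**
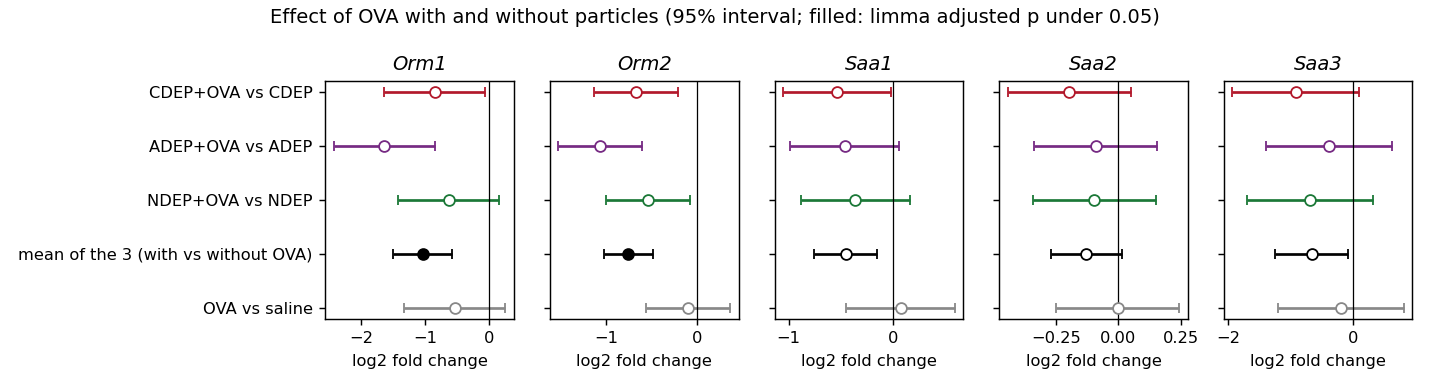
Log2 difference with its 95% interval for each member between each particle with OVA and the same particle alone, their mean, and OVA against saline, filled where limma's adjusted p was under 0.05. All differences with particle lie below 0, and the only filled points are the means for Orm1 (-1.04) and Orm2 (-0.75).

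Heart muscle transcripts moved with the OVA pairs. In the mean of the 3 pairs 8 of the 9 measured heart markers were lower. Their summed intensity was 2521 to 3659 in CDEP+OVA, 4002 to 4970 in ADEP+OVA and 3138 to 4494 in NDEP+OVA, against 4327 to 5404 in CDEP, 5951 to 8702 in ADEP and 4465 to 7177 in NDEP. The same 8 markers were lower in CDEP+OVA against OVA, where the sum was 5819 to 6727 in OVA, and 3 (Tnni3, Myl4 and Myl7) were lower in NDEP+OVA and 0 in ADEP+OVA against OVA. The median log2 fold change of the list was -0.97, -0.44 and -0.69 in CDEP+OVA, ADEP+OVA and NDEP+OVA, beside -0.014, 0.027 and 0.016 over all genes. The share of all genes called lower against OVA or saline is not given here, so these counts of heart markers lack that reference. The NDEP+OVA count was 6 without NDEP+OVA replicate 2 and 0 without any other array of that pair. Against saline, whose sum was 5991 to 11137, 2 were lower in CDEP, 0 in ADEP and 1 in NDEP, and over all alternatives these counts ran from 0 to 9, 0 to 1 and 0 to 3, with the highest under array weights. Leaving out single arrays gave 0 to 4 in CDEP, the highest without saline replicate 2, and the count was 0 without CDEP replicate 1 or 2 or saline replicate 3 and 1 without CDEP replicate 3 or saline replicate 1. The NDEP count was 0 without NDEP replicate 1 or 2 or saline replicate 1 or 3. No neutrophil marker was called in the mean of the 3 pairs. Of 10 monocyte and macrophage markers, Mrc1 and Chil3 were higher there and Cd14 lower, and their summed intensities are given with the neutrophil markers. The Cd14 call was lost with the RNA quality covariates, with a trended robust variance, and without CDEP+OVA replicate 1 or 3, ADEP+OVA replicate 2, NDEP+OVA replicate 2 or 3, CDEP replicate 1 or 2, ADEP replicate 1 or 3 or NDEP replicate 3. The RNA quality controls moved with 2 of the pairs as well: the 3′ minus 5′ difference of Actb was 0.848 to 1.23 log2 units in CDEP+OVA and 0.953 to 1.08 in NDEP+OVA, against 0.636 to 0.688 in CDEP and 0.700 to 0.933 in NDEP. That of Gapdh was 0.193 to 0.583 in CDEP+OVA, against 0.000 to 0.123 in CDEP. With both as covariates Orm1 (-1.11) and Orm2 (-0.71) were still called in the mean. The parts of heart tissue and of macrophages in the orosomucoid differences were not tested.

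The 3 particles were compared directly, CDEP with ADEP, CDEP with NDEP and ADEP with NDEP, without and with OVA. The 5 members gave 15 differences between particles without OVA and 15 with OVA. Of these, 0 were called by limma in each set, and 1 in each had an unadjusted p under 0.05. The share of all genes at that unadjusted threshold is not given here. The share of all genes called was 0%, 0% and 0.00807% without OVA and 1.43%, 0.00807% and 0.0161% with OVA, in either direction. Saa2 in CDEP against NDEP, at 0.26 (unadjusted limma p 0.0391) and dim on all 24 arrays, was the 1 under 0.05 without OVA. Orm1 in ADEP+OVA against NDEP+OVA, at -0.97 with a 95% interval from -1.76 to -0.19 (limma adjusted p 0.339), was the 1 with OVA. With SEs of 0.38 for Orm1 and 0.49 for Saa3, a missed threshold does not show that the particles acted alike.

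The other probe set annotated to Saa1 targets a sequence filed in RefSeq under Saa2, so its label and its target differ. On the 24 arrays it followed the chosen Saa1 probe set (r 0.944, and 0.883 after group means were removed) more closely than Saa2 (r 0.715, and 0.481), as a description over arrays that share groups. In a fit over all probe sets it rose by 1.63 ± 0.32 in CDEP and 1.28 ± 0.32 in NDEP against saline (limma adjusted p 0.00673 and 0.0301) and stood at 1.01 ± 0.32 in ADEP (0.120). With OVA its differences were 1.08, 1.02 and 0.94 in CDEP+OVA, ADEP+OVA and NDEP+OVA, none called. How much of any of the 3 readings comes from Saa1 and how much from Saa2 was not tested.

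**Figure D4:**
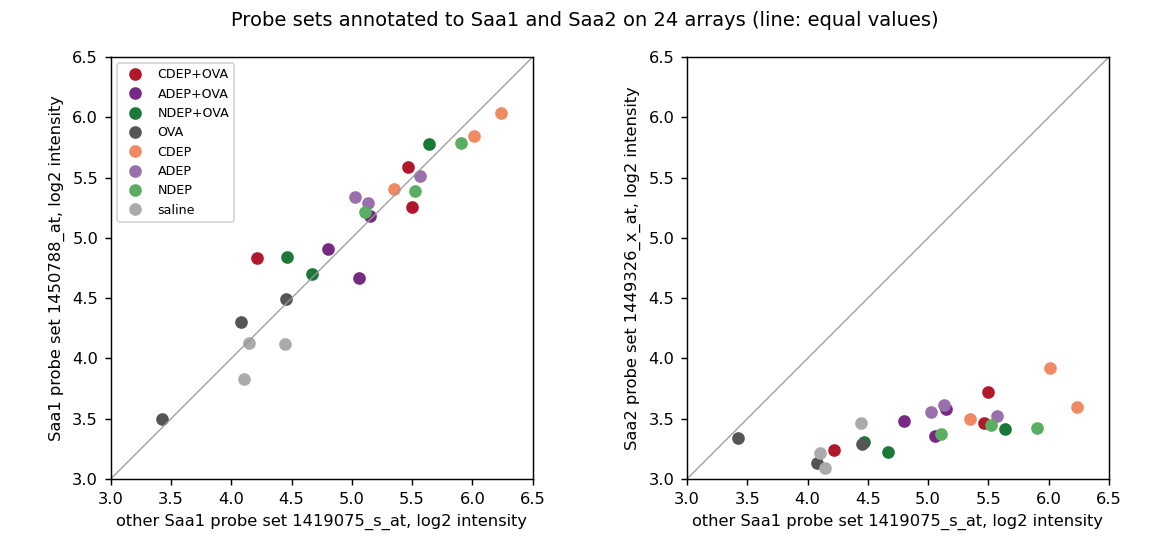
Log2 intensity of the chosen Saa1 and Saa2 probe sets (vertical) against the other probe set annotated to Saa1 (horizontal), 1 point per array, with the line of equal values. The Saa1 points follow the line, while the Saa2 points stay between 3.09 and 3.92 throughout.

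Among the cytokines that induce these genes and their receptors, 14 of 16 were measured, and Il1rn was called in all 6 particle comparisons and Il1b in 5. Higher against saline were 3 of 14 in CDEP (Il1b, Il1rn and the oncostatin M receptor Osmr), 2 in ADEP and 2 in NDEP (Il1b and Il1rn). With OVA 3 were higher in CDEP+OVA (Il6, Il1b and Il1rn), 2 in ADEP+OVA (Il1b and Il1rn) and 1 in NDEP+OVA (Il1rn). Il1b, which encodes interleukin 1 beta, rose by 0.99, 0.96 and 1.14 (SE 0.25) in CDEP, ADEP and NDEP, and Il1rn, its natural receptor antagonist, by 1.65, 1.37 and 1.84 (SE 0.26). Il6 rose only in CDEP+OVA (0.72 ± 0.19, limma adjusted p 0.0270) and stood at 0.38, 0.19 and 0.069 (SE 0.19) in CDEP, ADEP and NDEP. Tnf was between 0.085 and 0.29 in the 6 comparisons and passed in none. Over all alternatives these counts ran from 0 to 3 in CDEP, 0 to 3 in ADEP and 1 to 3 in NDEP, with 3 in ADEP and NDEP under array weights. The 0 in ADEP arose without ADEP replicate 1 or 3 or without saline replicate 1, and the 0 in CDEP with the RNA quality covariates. With the RNA quality covariates the Il1b call was lost in CDEP, ADEP and NDEP (limma adjusted p 0.311, 0.0575 and 0.0798). A trended robust variance lost it in CDEP (0.0534), ADEP (0.0922) and ADEP+OVA (0.0573). In ADEP it was lost with all probe sets in the fit (0.0600) and after quantile normalization (0.0516), and in ADEP+OVA with only the groups compared (0.0570). The Il1b call was also lost without saline replicate 2 or 3 in ADEP, without any CDEP array or saline replicate 1 in CDEP and without NDEP replicate 3 or saline replicate 1 in NDEP. With OVA, Il1b lost it without OVA replicate 2, CDEP+OVA replicate 2 or ADEP+OVA replicate 1 or 3, Il1rn in ADEP+OVA without OVA replicate 2 or 3 or ADEP+OVA replicate 1, and Il6 without any OVA array or CDEP+OVA replicate 2.

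**Figure D5:**
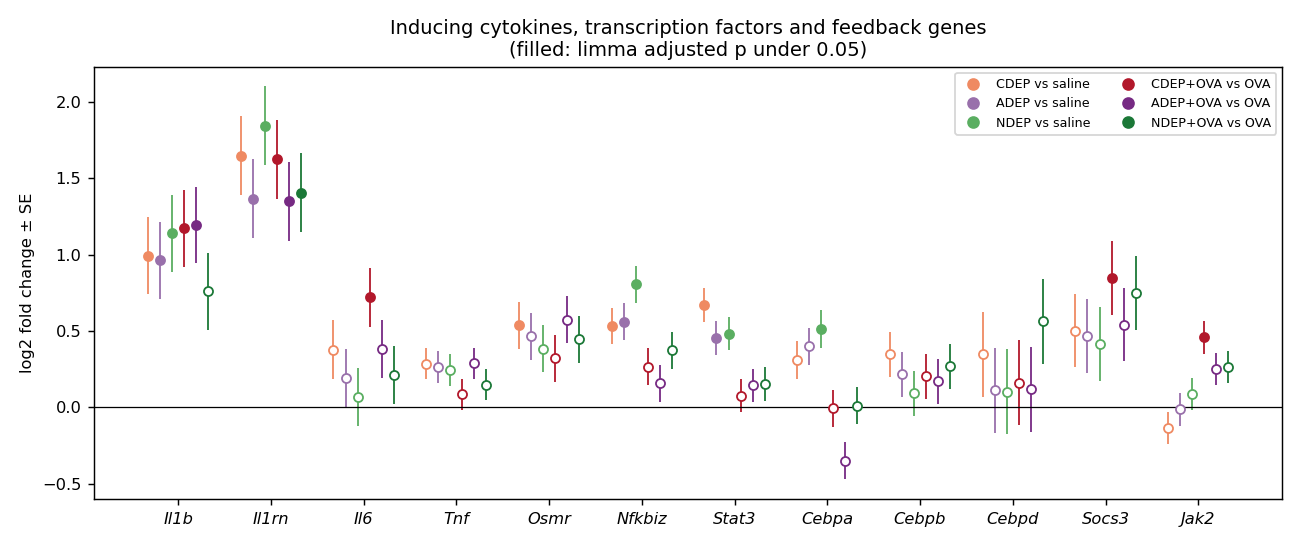
Log2 fold change ± SE of cytokine, transcription factor and feedback genes in the 6 particle comparisons, filled where limma's adjusted p was under 0.05. Il1rn is filled in all 6, Il1b in 5, Stat3 and Nfkbiz in the 3 comparisons with saline only, and Tnf in none.

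Of the transcription factors and feedback genes that act on acute phase promoters, 12 of 14 were measured. Stat3 rose by 0.67 ± 0.11 in CDEP, 0.45 ± 0.11 in ADEP and 0.48 ± 0.11 in NDEP. Nfkbiz, an inducible partner of NF-kB, rose by 0.53, 0.56 and 0.81 (SE 0.12), and NDEP added Cebpa, so the counts were 2, 2 and 3. Against OVA, Stat3 (0.077, 0.14 and 0.15) and Nfkbiz (0.27, 0.16 and 0.37) were not called, and the called genes were Socs3 (0.85 ± 0.24), a feedback inhibitor of STAT3 signalling, and Jak2, both in CDEP+OVA alone. Cebpb and Cebpd, the C/EBP factors induced in the acute phase, were between 0.092 and 0.35 and between 0.10 and 0.56 in the 6 comparisons and passed in none. In the mean of the 3 OVA pairs Nfkbiz was lower and Jak2 higher, and in the mean interaction none of the 12 was called. The ADEP count was 0 without ADEP replicate 1 or 3 or saline replicate 1, and 1 without ADEP replicate 2. It was 1 in CDEP without CDEP replicate 1 or 3 or saline replicate 1, and 1 in NDEP without NDEP replicate 2 or saline replicate 1. Stat3 in NDEP was also lost without NDEP replicate 3. With the RNA quality covariates Stat3 was not called in CDEP (limma adjusted p 0.141) or NDEP (0.129), nor Nfkbiz in CDEP (0.0856). With only the groups compared, Stat3 was not called in ADEP (0.109) or NDEP (0.149), nor Nfkbiz in ADEP (0.0703). In CDEP+OVA the count was 0 without CDEP+OVA replicate 2 or OVA replicate 2, and 1 without CDEP+OVA replicate 3 or OVA replicate 3. Among 7 measured receptors and partners of serum amyloid A, Tlr2 was called in NDEP and in CDEP+OVA and no other in the 6 comparisons. Its CDEP+OVA call was lost without CDEP+OVA replicate 1 or 2 or OVA replicate 2 or 3.

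Other acute phase genes, 21 of 22 measured, changed beside the members. Against saline 10 were higher in CDEP, 12 in ADEP and 9 in NDEP, and against OVA 7 in CDEP+OVA, 4 in ADEP+OVA and 7 in NDEP+OVA. The median log2 fold change of the list was 0.72, 0.85 and 0.72 in CDEP, ADEP and NDEP, and 0.23, 0.43 and 0.15 with OVA. Lcn2, a siderophore-binding lipocalin, rose by 2.37, 2.00 and 2.45 (SE 0.36) in CDEP, ADEP and NDEP, and by 1.94, 1.98 and 2.12 in CDEP+OVA, ADEP+OVA and NDEP+OVA. Serpina3n, a protease inhibitor, rose by 1.35, 1.00 and 1.14 (SE 0.24) against saline and by 1.59, 1.83 and 1.36 against OVA. Itih4, a plasma inhibitor heavy chain, rose by 1.19, 1.19 and 1.87 (SE 0.23) against saline but stood at 0.63, 0.62 and 0.84 against OVA, where it was not called. Chil1, a chitinase-like protein, rose in all 6, by 1.27, 1.27 and 1.45 (SE 0.21) against saline. Fga, Fgb and Fgg, the fibrinogen chains, Crp and Ptx3 were dim on all 24 arrays. In the mean of the 3 OVA pairs 8 of the 21 were lower, Hp, Hpx, Itih4, Hamp, Lbp, Cd14, Mt1 and Mt2. The ADEP count was 1 without ADEP replicate 3 or saline replicate 1 and 2 without ADEP replicate 1, with Lcn2 lost without either of the first and Serpina3n and Itih4 lost without any of them. Serpina3n was also lost without saline replicate 3 in ADEP and without NDEP replicate 3 in NDEP, and Chil1 in ADEP+OVA without any ADEP+OVA array or OVA replicate 2 or 3. Lcn2 in ADEP+OVA lost its call without OVA replicate 2 (1.37, limma adjusted p 0.0625) and with only the groups compared (0.0622). Against OVA, Itih4 was called in CDEP+OVA without CDEP+OVA replicate 3 and in NDEP+OVA without OVA replicate 1, in both with array weights (limma adjusted p 0.0116 and 0.00953) and with the RNA quality covariates (0.0127 and 0.00515), and in NDEP+OVA with the filter on dim genes (0.0474) and with only the groups compared (0.0381). The CDEP count was 0 with the RNA quality covariates. With OVA the counts fell to 4 (CDEP+OVA), 1 (ADEP+OVA) and 3 (NDEP+OVA) without OVA replicate 2, to 2 without any ADEP+OVA array and to 4 without NDEP+OVA replicate 3. The 8 lower genes were 5 without ADEP replicate 3, ADEP+OVA replicate 2 or CDEP replicate 2 and 4 without CDEP+OVA replicate 3.

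Neutrophil markers, genes of a blood cell drawn into inflamed lungs, moved with the particle comparisons. Of 11 measured, 5 were higher in CDEP, 3 in ADEP and 5 in NDEP against saline, and 2 (Cd177 and Il1r2) in each particle group against OVA. Their summed intensity was 2534 to 2648 in CDEP, 2300 to 3487 in ADEP and 2489 to 3242 in NDEP, against 1378 to 1796 in saline. With OVA it was 2630 to 2818 in CDEP+OVA, 1607 to 2636 in ADEP+OVA and 1959 to 3326 in NDEP+OVA, against 1085 to 1825 in OVA. Cd177, found on the neutrophil surface, was higher by 2.07, 1.93 and 2.57 (SE 0.41) in CDEP, ADEP and NDEP and by 3.48, 2.13 and 3.55 in CDEP+OVA, ADEP+OVA and NDEP+OVA. S100a8, a calcium-binding protein abundant in these cells, rose by 1.21, 1.37 and 1.43 (SE 0.28) against saline and stood at 0.33, 0.51 and 0.078 against OVA, where it was not called. The ADEP count was 0 without ADEP replicate 3 or saline replicate 1, 1 without ADEP replicate 1 and 5 without ADEP replicate 2, and Cd177 lost its call without any of the first 3 of these. S100a8 in CDEP lost it without CDEP replicate 1 or 2 or saline replicate 1, and with the RNA quality covariates (0.90, limma adjusted p 0.321). With a trended robust variance Cd177 was not called in ADEP (limma adjusted p 0.0626) or ADEP+OVA (0.0659). With only the groups compared it was not called in ADEP+OVA (0.121). The CDEP count was 1 to 3 without any 1 CDEP array or saline replicate 1, and the NDEP count 3 without NDEP replicate 3 and 2 without saline replicate 1. With OVA the ADEP+OVA count was 0 without OVA replicate 2 or ADEP+OVA replicate 3 and 1 without any other array of the pair. It was 1 without OVA replicate 2 or CDEP+OVA replicate 1 or 2 in CDEP+OVA, and 1 without OVA replicate 2 or 3 or NDEP+OVA replicate 1 or 3 in NDEP+OVA. Of 10 monocyte and macrophage markers 2 were higher in CDEP, 1 in ADEP and 3 in NDEP against saline, with sums of 10406 to 11007 in CDEP, 9422 to 10266 in ADEP and 11600 to 12247 in NDEP, against 8566 to 10823 in saline. Against OVA, Cd68, Mrc1 and Chil3 were higher in CDEP+OVA and in NDEP+OVA and none in ADEP+OVA, with sums of 10356 to 11821 in CDEP+OVA, 10284 to 14228 in NDEP+OVA and 10215 to 10972 in ADEP+OVA, against 9640 to 10126 in OVA. Over all alternatives these counts ran from 1 to 4 in CDEP+OVA, 0 to 3 in ADEP+OVA and 1 to 5 in NDEP+OVA. The CDEP+OVA count was 1 without OVA replicate 2 or CDEP+OVA replicate 2, and the NDEP+OVA count 5 without NDEP+OVA replicate 1. The ADEP count was 0 without ADEP replicate 1 or 3 or saline replicate 1, and the NDEP count 1 without NDEP replicate 3 or saline replicate 3. The part of neutrophils and of macrophages in the member differences was not tested.

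The genes whose levels most resembled each member over the 24 arrays were taken by Pearson correlation among all 12393 genes. For Orm1 these were Orm2 (r 0.965), Hpx (0.943), Slc39a4 (0.933), Ifitm1 (0.926) and Lbp (0.905). For Orm2 they were Orm1, Hpx (0.900), Lbp (0.898), D17H6S56E-5 (0.877) and Slc39a4 (0.873). Saa1 was nearest to Sod2 (0.922), Saa3 (0.918), Cfb (0.915), Lbp (0.900) and Steap4 (0.900), and Saa3 to Lcn2 (0.972), Steap4 (0.956), Cfb (0.946), Cxcl1 (0.936) and Timp1 (0.935). Saa2, dim throughout, was nearest to Nme6 (0.869), Ndufa8 (0.787), Ergic1 (0.759), Banf1 (0.716) and Coa3 (0.710). The arrays share groups, so these values hold both the contrast between groups and the spread between mice. With group means removed, Saa3 stayed at 0.935 with Lcn2, 0.937 with Cfb and 0.891 with Steap4, and Saa2 at 0.781 with Nme6. Orm1 stood at 0.737 with Hpx and 0.671 with Lbp, and Saa1 at 0.721 with Sod2. Saa1 and Saa3 had r 0.725 and the 4 pairs of an Orm gene with Saa1 or Saa3 had r 0.363 to 0.404, all over 24 arrays.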

How the data were processed

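Lung RNA (2 ug per mouse) was measured on 24 one-colour Affymetrix arrays, 1 per mouse. The authors deposited intensity values per probe set made with RMA, per the submitters' processing notes, with no version given in the sources used here. The values ran from 5.98 to 18195.5, a linear scale, so log2 was taken although the plan assumed log2 values. Background flags were not used here, and the number of arrays limits the precision. The 3 arrays of a group are separate mice per the design.

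Of 22690 probe sets, 64 controls, 691 with several symbols and 1555 with none were left unnamed. Symbols come from the platform annotation. Starts, promoter bases and gene spans come from RefSeq tables (GRCm38.p6), where 12369 of the 12393 genes matched. The table gave no promoter for Orm1. limma 3.58.1 in R 4.3.3 fitted 8 group means to all arrays (16 residual and 8.16 prior degrees of freedom) with two-sided moderated tests, adjusted by Benjamini-Hochberg over 12393 genes in each of 21 comparisons. The mean of the 3 OVA pairs and the mean interaction were added after the data were seen, and the motif letters were chosen then too. Members and gene lists were chosen with earlier results of these data known. Named genes are the members, Orm3 and Saa4, up to 4 genes per list with the smallest p over the 6 particle comparisons, 7 regulators given always, and the 5 most correlated genes per member. Genes named as called in a list, receptor or marker count fall partly outside this rule and were chosen after their values were seen. Tables were read and plots drawn in Python 3.11.15 (pandas 2.3.3, numpy 2.4.6, matplotlib 3.10.9). The code was tested on simulated data. The highest correlation of any pair of arrays was 0.996.

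Alternatives were all probe sets, the other Saa1 probe set, a filter on dim genes (10387 kept), a replicate block, array weights, a repeated quantile normalization, fits of only the groups compared, a trended robust variance, RNA quality covariates and leaving out each array.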

Additional observations from a re-analysis of the deposited data

How the results depend on the processing

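Orm1 kept its call in the 3 comparisons with saline, in CDEP+OVA and NDEP+OVA against OVA, under every alternative run, and the NDEP count against saline was 4 in each fit that left out an array. The members called in CDEP against saline fell to 1 with the RNA quality covariates. A trended robust variance gave 2 in NDEP+OVA and 0 in ADEP+OVA against OVA. A fit of only the groups compared gave 2 in NDEP+OVA and 1 in ADEP+OVA against OVA, and 3 in CDEP+OVA against CDEP. Array weights gave 2 in ADEP+OVA against ADEP and 1 in the ADEP by OVA interaction. The shares of all genes called under these settings are not given here, so these member counts lack that reference. The causes of these changed counts were not tested. Fits that left groups out also held fewer samples. Leaving out 1 array gave 2 to 4 members in ADEP against saline, 1 to 4 in CDEP+OVA, 0 to 2 in ADEP+OVA and 2 to 4 in NDEP+OVA against OVA, and 0 to 2 in ADEP+OVA against ADEP. Deviations of 84 same-numbered pairs of arrays correlated at -0.323 to 0.354, and 27 were above 0.1. No values for differently numbered pairs are given beside them, so whether replicate numbers mark a shared batch cannot be told. A replicate block gave 2 members in ADEP+OVA against ADEP, Orm1 and Orm2, and moved no other count by over 1.5 times.

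Changes of sign arose only among differences that had not been called. In OVA against saline, Orm2 was at 0.013 with array weights, Saa1 at -0.25 with its other probe set and -0.052 with the RNA quality covariates, and Saa2 at 0.026 after quantile normalization and 0.069 with array weights. Leaving out 1 array there gave -0.12 to 0.37 for Saa1, -0.085 to 0.0996 for Saa2 and -0.88 to 0.73 for Saa3. With the RNA quality covariates, Saa2 was at 0.0065 in NDEP+OVA against NDEP, 0.0017 in CDEP+OVA against CDEP and 0.071 in the mean interaction. Leaving out 1 array gave -0.00059 to 0.11 for Saa2 in NDEP+OVA against OVA and -1.40 to 0.21 for Saa3 in the mean interaction. Il6 in NDEP against saline was at -0.051 with the RNA quality covariates, and leaving out 1 array gave -0.070 to 0.18, the lowest without NDEP replicate 3. The same gave -0.20 to 0.34 for S100a8 in NDEP+OVA against OVA and -0.034 to 0.18 for Tnf in CDEP+OVA against OVA. Cebpd was at -0.051 with array weights in ADEP+OVA and -0.0048 with the RNA quality covariates in CDEP+OVA against OVA, and leaving out 1 array gave -0.16 to 0.42 and -0.12 to 0.46. It gave -0.18 to 0.42 in NDEP and -0.057 to 0.25 in ADEP for Cebpd against saline, and -0.076 to 0.23 for Cebpb in NDEP. The Socs3 call in CDEP+OVA against OVA was lost after quantile normalization (adjusted p = 0.0764, limma), with a trended robust variance, with only the groups compared and with the RNA quality covariates. Dim readings limit Orm1 in OVA lungs, Orm2 in saline, OVA and ADEP+OVA lungs, Saa1 in saline and OVA lungs and Saa2 in all groups. The size of the fold changes there is uncertain.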
